A study of Mus musculus with 2 samples.

Results

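The core genes of the circadian clock were compared between 2 pools of mouse aortic macrophages, with the question whether the pools differed in the phase of the clock. The set was 10 genes chosen by name, namely Arntl, Clock, Npas2, Per1, Per2, Per3, Cry1, Nr1d1, Nr1d2 and Dbp, and all 10 were found among the 54532 genes of the table. All mice were ApoE-/- on a C57BL/6J background and 6 weeks old by the labels. One pool came from mice with Phlegm-Dampness Retention (PDR) syndrome, which was induced by 4 weeks of high-fat diet. The other came from mice with Spleen and Kidney Yang Deficiency (SKYD) syndrome, which had received propylthiouracil, a blocker of thyroid hormone synthesis, at 10 mg/kg per day for 4 weeks and then high-fat diet for 2 weeks. Loss of ApoE raises plasma cholesterol, and the groups shared it, so neither pool stands for a mouse with normal lipids. Modeling took 4 weeks in PDR and 6 weeks in SKYD, so the labelled 6 weeks are not read as the age at sampling. Syndrome, drug, time on the diet and age at sampling cannot be told apart in this design.

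Cells carrying F4/80 and CD11b, surface proteins of macrophages, were sorted from the aorta, and the cells of 5 mice were pooled for each library. Each group had 1 library, so none of the differences given here has a replicate check, and no p-value was computed. The mice lived in 12 h of light alternating with darkness and were fasted for 18 h before sampling. The time of day at which the cells were taken was not given in the sources used here. Fasting and the time of feeding are themselves signals to the clock.

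The values were FPKM, the fragments on a gene per kilobase of its length, scaled to a size for each library. Whole reads could be recovered from them, because FPKM times gene length fell on multiples of 1 step in each library. The PDR library held 23086889 reads on genes, the SKYD library 25427863. The size that the FPKM were scaled to was 1.017 times these reads in PDR and 0.983 times in SKYD, so the values carry a scaling between the libraries whose method was not given in the sources used here. With the reads on genes as size, log2 ratios would be 0.0497 higher. Intervals are 95% intervals from the reads, exact Poisson for a level and exact binomial (Clopper-Pearson) for a ratio, and they cover counting error only. Where a gene had 0 reads, up to 3 reads remain possible.

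The sorted cells carried the genes of the sort markers. Adgre1, which encodes F4/80, had an FPKM of 87.3 in PDR and 93.3 in SKYD, and Itgam, which encodes CD11b, had 8.84 and 14.4. All 12 macrophage markers were detected in each library, and none was at 0. Markers of T cells, B cells, neutrophils, red cells and hepatocytes were also present in each library, and their values are given after the clock genes. The markers behind the macrophage label were therefore present, together with RNA of other cell types.

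The mammalian clock is a loop of transcription and translation that runs in nearly every cell, macrophages included. BMAL1 (encoded by Arntl) pairs with CLOCK or NPAS2 and binds E-boxes, which raises the transcription of the Per and Cry genes, of the REV-ERB genes Nr1d1 and Nr1d2 and of Dbp. PER and CRY proteins then block that pair, and the REV-ERBs repress Arntl through RRE elements, so that transcripts of Arntl peak at about the opposite time of day from those of Nr1d1, Dbp and the Per genes.

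The start regions of the genes were read for matches to these elements. RefSeq promoters on GRCm38.p6, from 250 bases before to 50 bases after a start site, were held for 9 of the 10 genes, in 13 windows. They were searched on both strands for the E-box CACGTG, for the D-box TTANGTAA, which DBP and its relatives bind, and for the RRE ANTNGGTCA. The E-box was in windows of 2 clock genes, Per1 and Cry1, the D-box in that of 1, Per3, and the RRE in that of 1, Arntl. Of all 32851 promoters in the table, 7.15% held the E-box, 2.32% the D-box and 2.24% the RRE, and of all 27025 genes in it, 8.09%, 2.72% and 2.56% had at least 1 such window. These 4 genes are shown because the loop described above runs through these elements, with the match in capitals and the strand of the gene printed.
Per1, chr11:69098699-69098948, plus strand, the 250 bases before a start site: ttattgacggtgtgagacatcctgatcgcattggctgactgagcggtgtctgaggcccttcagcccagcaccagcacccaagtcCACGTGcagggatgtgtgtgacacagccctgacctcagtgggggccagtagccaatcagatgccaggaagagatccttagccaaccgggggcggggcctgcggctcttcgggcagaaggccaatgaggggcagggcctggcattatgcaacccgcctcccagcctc
Cry1, chr10:85185055-85185304, minus strand, the 250 bases before the start site: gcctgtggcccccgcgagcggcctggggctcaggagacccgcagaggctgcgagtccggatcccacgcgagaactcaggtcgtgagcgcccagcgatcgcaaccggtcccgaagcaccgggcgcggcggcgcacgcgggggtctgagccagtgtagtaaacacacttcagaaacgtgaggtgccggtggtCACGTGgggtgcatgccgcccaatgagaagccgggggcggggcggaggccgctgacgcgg
Per3, chr4:151044666-151044915, minus strand, the 250 bases before the start site: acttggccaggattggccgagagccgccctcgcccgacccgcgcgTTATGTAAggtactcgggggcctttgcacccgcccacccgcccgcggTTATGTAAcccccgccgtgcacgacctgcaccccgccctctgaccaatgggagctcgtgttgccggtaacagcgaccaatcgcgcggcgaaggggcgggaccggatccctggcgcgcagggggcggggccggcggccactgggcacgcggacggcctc
Arntl, chr7:113207529-113207558, plus strand, 30 bases around the match: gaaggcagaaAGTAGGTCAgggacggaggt
The E-box began 166 bases before the start site in Per1 and 60 bases before it in Cry1. Per3 held 2 D-boxes, which began 205 and 158 bases before its start site, in a stretch that lies within an intron of Camta1. In Arntl the RRE began 28 bases after the start site and lay in an exon. Of the 250 printed bases, 1 of Per1 and 10 of Cry1 lie in an exon of the gene itself in GENCODE M21, and the stretch of Per1 lies inside the gene, which has a further start site upstream. A match is a run of letters, and no binding was measured. Elements outside these windows or with other letters are missed, and Per2 had no window, so a gene without a match can still have such elements.

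Most of the clock genes were low in these cells. Of the 10 genes, 9 had reads in at least 1 library, and together the 10 took 931 reads in PDR and 1525 in SKYD. A mean FPKM of at least 1, the filter for the comparison, was reached by 3 genes, Arntl, Cry1 and Dbp, and the other 7 stayed below it. Differences are given first as log2(FPKM + 1) in PDR minus that in SKYD. On this scale none of the 3 genes that passed the filter differed by more than 2-fold. Among all 10399 genes that passed it, 7.38% lay past 2-fold with the higher value in PDR and 6.91% with the higher value in SKYD, 14.3% in all.

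The added 1 hides differences of low genes, so the ratio of FPKM without it was taken for the genes with at least 20 reads in both libraries together. This held for 8 of the 10 clock genes and for 15014 genes in all. By this ratio 2 clock genes, Per1 and Per2, were more than 2-fold higher in SKYD and none was that far higher in PDR, where the background was 15.4% of genes higher in SKYD and 13.3% higher in PDR. For 1 clock gene, Per1, the whole interval lay beyond 2-fold in SKYD, against 9.52% of genes in that direction and 8.03% in the other. The interval kept off equality, with the higher value in SKYD, for 5 clock genes (Arntl, Per1, Per2, Cry1 and Nr1d1) and in 36.9% of all these genes. It did so with the higher value in PDR for 1 clock gene, Clock, and in 33.8% of all genes. Intervals off equality were thus common in these deep libraries, and the members' counts are to be read against those shares.

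Among the activators, Arntl (ENSMUSG00000055116, chromosome 7 from 113207465 to 113314126 of GRCm38) is the 1 partner the loop cannot run without. Its FPKM was 1.48 in PDR (261 reads, 95% interval 1.30 to 1.67) and 2.82 in SKYD (530 reads, 2.58 to 3.07). Arntl was higher in SKYD, with intervals of the levels that did not overlap. The difference in log2(FPKM + 1) was -0.62, and the FPKM in SKYD was 1.91 times that in PDR.

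Clock (ENSMUSG00000029238, chromosome 5 from 76209868 to 76304792), the usual partner of BMAL1, had the opposite order. Its FPKM was 0.602 in PDR (194 reads, 0.520 to 0.693) and 0.370 in SKYD (127 reads, 0.309 to 0.440). Clock was thus 1.63 times as high in PDR, a log2 ratio of 0.70 with an interval from 0.37 to 1.04. The transcripts of the partners therefore stood in different proportion, with Arntl 2.45 times the FPKM of Clock in PDR and 7.61 times in SKYD. Npas2 (ENSMUSG00000026077), which can replace CLOCK in some tissues, had 0 reads in each library. The limit of 3 reads corresponds to an FPKM of 0.0267 in PDR and 0.0251 in SKYD, so no difference of Npas2 was detectable at this depth.

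The repressors were all lower in PDR by their reads, although the size differed and the depth for Per3 was too low to tell. Per1 (ENSMUSG00000020893, chromosome 11 from 69095217 to 69109960) encodes a PER protein and is also induced directly by glucocorticoids. It had 18 reads in PDR and 128 in SKYD, an FPKM of 0.136 (0.0807 to 0.215) and of 0.909 (0.759 to 1.08). Its FPKM in SKYD was 6.68 times that in PDR, a log2 ratio of -2.74 (-3.54 to -2.02), and 5.05% of the 15014 genes had a ratio as low or lower. On the log2(FPKM + 1) scale the same difference was -0.75, since both levels were small beside 1.

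Per2 (ENSMUSG00000055866, chromosome 1 from 91415982 to 91459324), the PER protein whose loss shortens the rhythm, had 6 reads in PDR and 22 in SKYD. Its FPKM was 0.0436 and 0.150, with intervals of the levels that met, from 0.0160 to 0.0949 in PDR and from 0.0942 to 0.228 in SKYD. The log2 ratio was -1.78, with an interval from -3.38 to -0.44, so Per2 was higher in SKYD by an amount that these reads fix poorly. Per3 (ENSMUSG00000028957, chromosome 4 from 151003652 to 151044665) had 2 reads in PDR and 5 in SKYD. Its log2 ratio of -1.23 had an interval from -4.62 to 1.38, so no difference was detectable at this depth.

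Cry1 (ENSMUSG00000020038, chromosome 10 from 85131700 to 85185064), the main repressor of the BMAL1 pair, was the most abundant of the 10 genes per length in each library. Its FPKM was 2.89 in PDR (227 reads, 2.53 to 3.30) and 5.0 in SKYD (417 reads, 4.53 to 5.50). Cry1 was higher in SKYD by 1.73 times, with a difference in log2(FPKM + 1) of -0.62, the same to 2 decimals as that of Arntl.

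The REV-ERB receptors repress Arntl and, in macrophages, also inflammatory genes. Nr1d1 (ENSMUSG00000020889, chromosome 11 from 98767932 to 98775333), which encodes REV-ERB alpha, had an FPKM of 0.457 in PDR (33 reads, 0.314 to 0.641) and 0.884 in SKYD (68 reads, 0.687 to 1.12). It was 1.94 times as high in SKYD, a log2 ratio of -0.95 (-1.60 to -0.33). Nr1d2 (ENSMUSG00000021775, chromosome 14 from 18204054 to 18239127), which encodes REV-ERB beta, had 0.740 in PDR (94 reads, 0.598 to 0.905) and 0.954 in SKYD (129 reads, 0.797 to 1.13). Its log2 ratio was -0.37 with an interval from -0.77 to 0.03, so the levels of Nr1d2 were not apart beyond counting error.

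Dbp (ENSMUSG00000059824, chromosome 7 from 45705088 to 45710203) encodes an output factor that is among the transcripts with the widest swing over the day in many tissues. Its FPKM was 1.37 in PDR (96 reads, 1.11 to 1.67) and 1.32 in SKYD (99 reads, 1.08 to 1.61). The log2 ratio was 0.05 with an interval from -0.38 to 0.47, so Dbp stood at nearly the same level in each library.

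**Figure D1:**
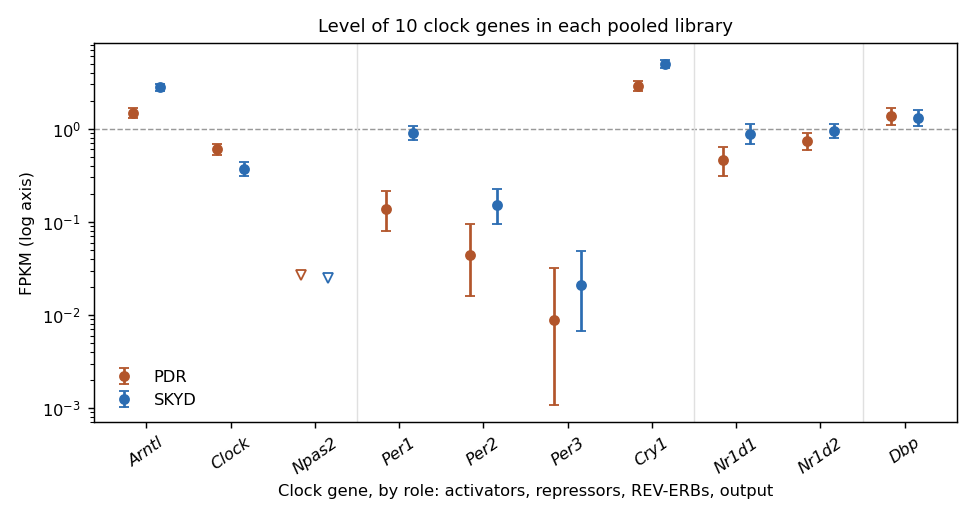
FPKM (log axis) of the 10 clock genes in the PDR and the SKYD library, 1 pooled library each, with exact 95% Poisson intervals; open triangles mark the limit of 3 reads for Npas2, which had 0 reads, and the dashed line marks an FPKM of 1. Arntl and Cry1 lie above 1 and higher in SKYD, Clock lies higher in PDR, and Dbp is level at 1.37 and 1.32.

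The order of the genes by level was nearly the same in each library. From the top it ran Cry1, Arntl, Dbp and Nr1d2 in each, and Per2, Per3 and Npas2 came last in each. Between them, PDR had Clock, Nr1d1 and Per1 in this order, and SKYD had Per1, Nr1d1 and Clock. The intervals of neighbours overlapped for Arntl and Dbp in PDR, for Nr1d2, Clock and Nr1d1 in PDR, and for Dbp, Nr1d2, Per1 and Nr1d1 in SKYD, as they did among the lowest genes from Per1 to Npas2 in PDR and for Per3 and Npas2 in SKYD. The exchange of Clock and Per1, from rank 5 and 7 in PDR to rank 7 and 5 in SKYD, was the change in order.

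Of the 9 clock genes with reads, 7 had the lower FPKM in PDR, and 2, Clock and Dbp, had the higher, whereas 56.4% of all 21718 genes with reads were lower in PDR. The 7 include Per3 and Nr1d2, whose intervals held equality. The median difference in log2(FPKM + 1) was -0.62 over the 3 genes past the filter and -0.15 over all 10, beside -0.0035 over the 10399 genes tested. For the 8 genes with at least 20 reads the median log2 ratio was -0.86, beside -0.03 over the 15014 genes. These medians describe a set of few genes in 2 libraries.

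**Figure D2:**
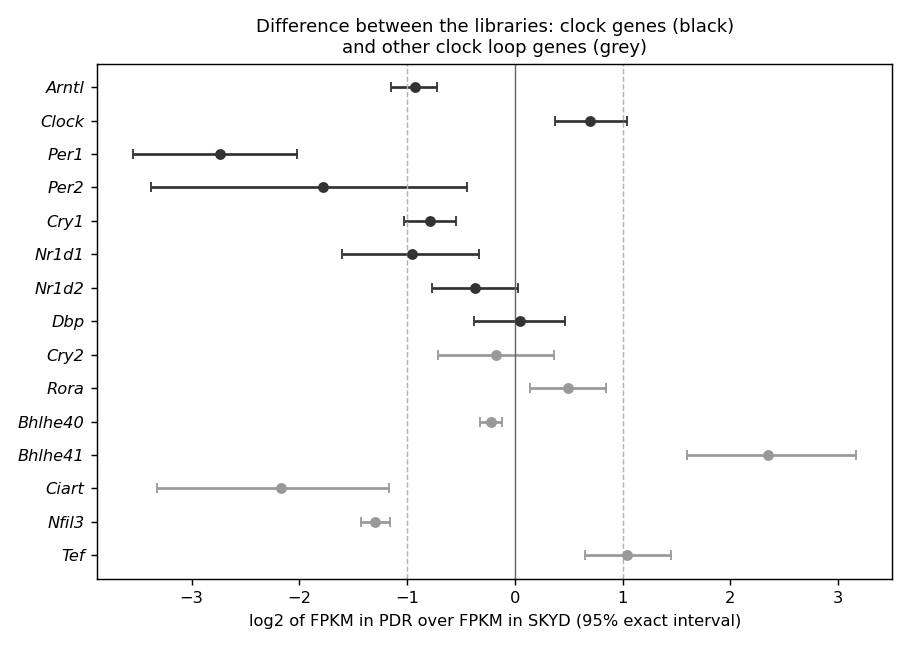
The log2 ratio of FPKM in PDR over SKYD with its exact 95% interval, for the 8 clock genes with at least 20 reads (black) and for other genes of the clock loop (grey); dashed lines mark 2-fold, and Hlf is left off because it had 0 reads in SKYD. Per1 is the black point whose interval lies wholly beyond 2-fold. The whole intervals of Arntl, Per2, Cry1 and Nr1d1 also lie on the SKYD side of 0, whereas that of Nr1d2 holds 0.

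Ratios inside a library do not depend on how the libraries are scaled to each other, and a shift in phase can move Arntl and its opposite genes apart. A ratio at 1 time, whether equal or not, does not by itself tell whether the phase differed. The FPKM of Arntl was 3.23 times that of Nr1d1 in PDR (95% interval 2.25 to 4.80) and 3.19 times in SKYD (2.47 to 4.17). Arntl and Nr1d1 were thus in nearly equal proportion in each library, although each was higher in SKYD. Against Nr1d2 the ratio was 2.0 in PDR (1.57 to 2.55) and 2.95 in SKYD (2.43 to 3.61). The log2 change of that ratio, PDR over SKYD, was -0.57 with an exact conditional interval from -1.02 to -0.11, so Arntl was higher relative to Nr1d2 in SKYD, although the intervals of the separate ratios overlapped.

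Against Dbp the ratio of Arntl was 1.08 in PDR (0.853 to 1.38) and 2.13 in SKYD (1.72 to 2.67), a log2 change of -0.98 (-1.45 to -0.50), so Arntl was relatively higher in SKYD. Against Per1 it was 10.9 in PDR (6.73 to 18.6) and 3.10 in SKYD (2.55 to 3.79), a log2 change of 1.81 (1.05 to 2.64), so Arntl was relatively higher in PDR. The ratios to Dbp and Per1 thus differed in opposite directions. Against Per2 the ratio was 33.9 in PDR and 18.8 in SKYD and against Per3 it was 167 and 135. The intervals of these changes, from -0.52 to 2.46 and from -2.32 to 3.70, held 0.

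Of the 6 genes that peak opposite to Arntl, the change of the ratio was apart from 0 beyond counting error for 3, with Arntl relatively higher in SKYD against Nr1d2 and Dbp and relatively higher in PDR against Per1. For Nr1d1 its interval ran from -0.64 to 0.71, so a moderate change in either direction was not detectable at this depth. Against Cry1, which peaks later than the Per genes, the ratio was 0.510 in PDR and 0.564 in SKYD, a log2 change of -0.14 (-0.47 to 0.18). A phase needs samples around the day, and 1 library at 1 unstated time cannot give it. Whether the pools differed in phase was therefore not tested.

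**Figure D3:**
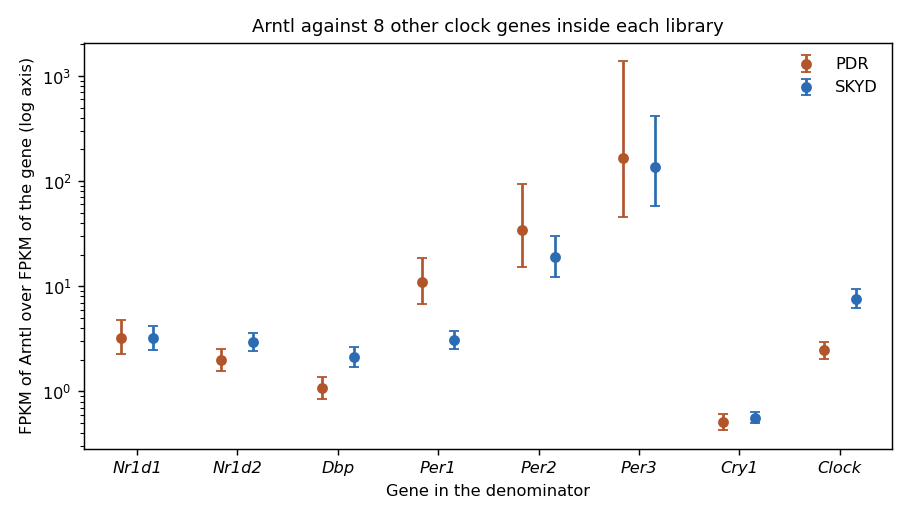
FPKM of Arntl over that of 8 other clock genes (log axis) inside the PDR and the SKYD library, with exact 95% binomial intervals. The ratio to Nr1d1 is 3.23 in PDR and 3.19 in SKYD, those to Nr1d2, Dbp and Clock are higher in SKYD and that to Per1 is higher in PDR.

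Some members share their position with other genes, and whether the reads were counted by strand was not given in the sources used here. Exons of Nr1d1 share 263 bases with those of Thra on the opposite strand, a thyroid hormone receptor gene with 8 reads in PDR and 20 in SKYD. Exons of Dbp share 539 bases with those of Sphk2 on the opposite strand, which had 388 and 502 reads, and exons of Arntl share 33 bases with Gm45355, which had 0 reads in each. Reads in these stretches cannot be assigned without strand, so the values of Nr1d1 and Dbp are uncertain to that extent.

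Per3 lies inside Camta1 on the same strand, Clock overlaps Ube2n-ps1 and Gm43658, and Npas2 overlaps Gm20428 and Gm3617, but none of these shares exon bases with the member. Camta1 had 361 reads in PDR and 475 in SKYD, and Ube2n-ps1 had 172 and 183. Gm43658 had 0 and 6 reads, and Gm20428 and Gm3617 had 0 in each. No gene in the table overlapped Per1, Per2, Cry1 or Nr1d2, so their reads have no such doubt.

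Of 10 other genes of the clock loop, 2 passed the filter. Of these, 1, Nfil3, was more than 2-fold higher in SKYD, beside 6.91% of all tested genes. Nfil3, which represses through the D-box that DBP activates, had an FPKM of 12.6 in PDR and 31.0 in SKYD, a difference in log2(FPKM + 1) of -1.23. With Dbp level, the transcript of this repressor was higher in SKYD and that of the activator DBP was not. Proteins and activity at the D-box were not measured. Tef, a D-box activator related to DBP, was higher in PDR, with an FPKM of 0.850 against 0.412. Hlf, the third of that family, had 39 reads in PDR and 0 in SKYD, and the lower 95% limit of its log2 ratio was 3.42.

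Bhlhe40, a repressor at E-boxes, was the other gene past the filter, and its FPKM was 12.9 in PDR and 15.0 in SKYD, a difference of -0.20.

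By the ratio of FPKM, 8 of the 10 genes had at least 20 reads, of which 2 were past 2-fold with the higher value in SKYD and 3 with the higher value in PDR. Higher in SKYD were Nfil3 and Ciart, an inhibitor of the BMAL1 pair with 10 reads in PDR and 48 in SKYD. Higher in PDR were Tef, Hlf and Bhlhe41, a repressor akin to Bhlhe40 with 86 reads in PDR and 18 in SKYD. The log2 ratio of Tef was 1.04, with an interval from 0.65 to 1.45 that held 2-fold. Hlf and Bhlhe41 were named after their values were seen. Over all 15014 genes the shares past 2-fold were 15.4% with the higher value in SKYD and 13.3% with the higher value in PDR.

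Of the 15 genes whose proteins modify clock proteins, 11 passed the filter and none differed by more than 2-fold, where 14.3% of all tested genes did, a share at which 0 of 11 does not set the list apart. The 4 most abundant were Nono, a partner of PER proteins, Csnk1d, a kinase that marks PER for decay, Hdac3, the deacetylase that REV-ERBs recruit, and Prkaa1, a kinase that marks CRY for decay. Nono had an FPKM of 58.1 in PDR and 39.6 in SKYD, a difference of 0.54. Csnk1d had 9.50 and 11.2, Hdac3 had 7.55 and 7.36, and Prkaa1 had 6.10 and 5.78, all within 0.22 on the log2(FPKM + 1) scale. The median over the 11 genes was -0.22. By the ratio of FPKM, 1 of the 14 with at least 20 reads was past 2-fold, namely Sirt1, a deacetylase of clock proteins, with 46 reads in PDR and 153 in SKYD, beside 15.4% of all genes in that direction.

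Of 10 genes whose transcripts follow the clock in many tissues, 9 passed the filter, 1 was more than 2-fold higher in PDR and 3 more than 2-fold higher in SKYD, beside 7.38% and 6.91% of all tested genes. Nampt, which makes NAD and is driven by the BMAL1 pair, had an FPKM of 22.5 in PDR and 7.49 in SKYD. Tsc22d3, Klf9 and Cdkn1a were the ones higher in SKYD, at 169.7 against 55.9, 11.7 against 1.49 and 69.2 against 17.7. Nampt therefore stood opposite to Arntl, and the 3 genes higher in SKYD are also induced by glucocorticoids or stress. Id2, a transcriptional inhibitor and the most abundant of the list, had 229 in PDR and 428 in SKYD. Of the 10 genes, 8 had the lower value in PDR, beside 51.6% of all genes with at least 20 reads. The median difference over the 9 genes past the filter was -0.62. By the ratio of FPKM, 2 of the 10 were past 2-fold with the higher value in PDR and 3 with the higher value in SKYD, beside 13.3% and 15.4% of all genes with at least 20 reads. The gene this added, Lonrf3, was named after its values were seen, and its 15 and 7 reads gave a log2 ratio of 1.19 (-0.19 to 2.72).

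Glucocorticoids induce Per1 directly and set the clock of many tissues, so their other targets were read beside it. The list of targets holds Per1 itself and was chosen with earlier results of these data known, so its counts are description only. All 7 genes of that list, Per1 and Tsc22d3 included, had the lower value in PDR, as did 51.6% of all genes with at least 20 reads. Of the 5 that passed the filter, 4 were more than 2-fold higher in SKYD, namely Fkbp5, Ddit4, Tsc22d3 and Dusp1, beside 6.91% of all tested genes. The FPKM of Fkbp5, a chaperone of the glucocorticoid receptor, was 1.25 in PDR and 12.6 in SKYD, that of Ddit4, an inhibitor of mTOR signalling, was 0.437 and 3.03, and that of the phosphatase gene Dusp1 was 95.1 and 235. Sgk1, a kinase gene, had 10.7 and 13.5. By the ratio of FPKM, 6 of the 7 genes, Per1 itself among them, were past 2-fold and higher in SKYD, beside 15.4% of all genes, and Sgk1 was not. Zbtb16, a transcription factor gene named after its values were seen, had 6 reads in PDR and 139 in SKYD, 21.8 times the FPKM. The median difference over the 5 genes was -1.49, and Per1 differed in the same direction, while whether glucocorticoids set it was not tested.

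Genes that respond within minutes to handling and digestion of tissue can include Per1, and 10 immediate early genes were read for that reason. Of these, 9 passed the filter, and none differed by more than 2-fold, beside 14.3% of all tested genes. Fos, a subunit of AP-1, had an FPKM of 90.2 in PDR and 90.3 in SKYD, and Ier2 had 104 and 102. Junb, another AP-1 gene, had 115 and 163, and Btg2, an inhibitor of growth, had 50.3 and 86.4. By the ratio of FPKM, 1 of the 9 with at least 20 reads, Egr2, was past 2-fold, with 30 reads in PDR and 140 in SKYD, beside 15.4% of all genes in that direction. Sirt1 and Egr2 were named after their values were seen. The intervals of the ratio held equality for Fos, Jun and Ier2, lay on the SKYD side for Junb, Btg2, Egr1, Egr2 and Fosb, and lay on the PDR side for Nr4a1 and Atf3. The part of handling in the difference of Per1 was not tested.

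All 8 macrophage genes that REV-ERBs or BMAL1 hold down or time passed the filter, and 1, Ccl2, was more than 2-fold higher in PDR, beside 7.38% of all tested genes. Ccl2, which attracts monocytes and is repressed by REV-ERB alpha, had an FPKM of 199 in PDR and 46.0 in SKYD. Il1b had 89.8 and 71.1, Ccl8 had 66.6 and 52.1, and Nfe2l2, the NRF2 gene that BMAL1 drives, had 29.5 and 24.3. The value was higher in PDR for 7 of the 8 genes and for 48.4% of all genes with at least 20 reads, and the median difference of the list was 0.34. The exception was Il6, an inflammatory cytokine gene, with an FPKM of 4.47 in PDR and 6.81 in SKYD. Nr1d1 and Arntl were lower in PDR in the same libraries. The list joins genes held down or timed with Nfe2l2, which BMAL1 drives, so its counts do not follow 1 direction of control. Whether the lower Nr1d1 had a part in these differences was not tested.

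**Figure D4:**
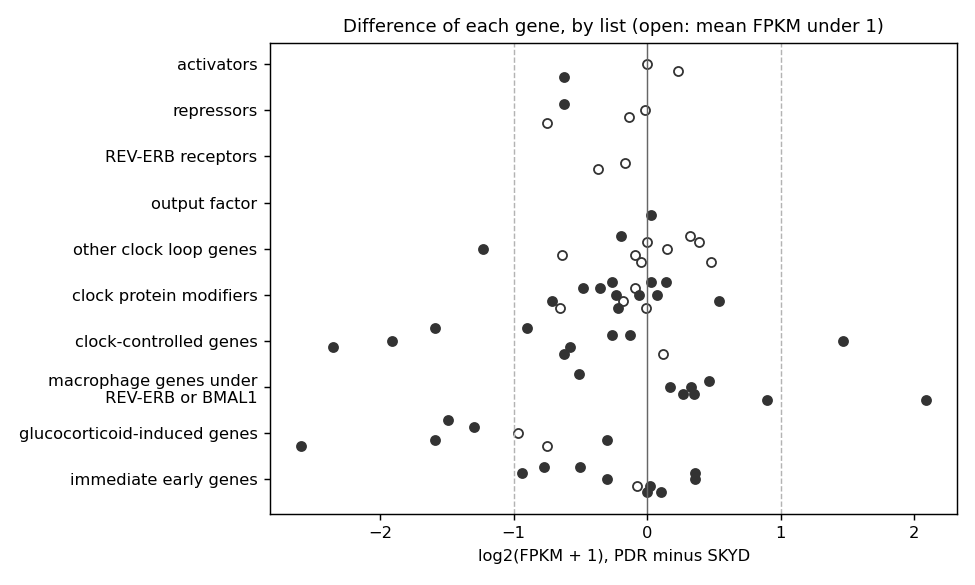
Difference in log2(FPKM + 1), PDR minus SKYD, of each gene by list; filled points had a mean FPKM of at least 1, open points less, and dashed lines mark 2-fold. No filled or open point of the 10 clock genes, shown in the first 4 lists, passes a dashed line, whereas 4 glucocorticoid-induced genes lie past the SKYD side.

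The clock loop runs in nearly every cell, and the pools also differed in markers of other cells. Fewer cells of a type and less RNA per cell cannot be told apart in pooled RNA. The 12 macrophage markers took 3.37% of reads on genes in PDR and 6.28% in SKYD, with Lyz2 the most abundant. The gene named as leading a list is the one with the highest FPKM averaged over the libraries. Without Lyz2, the other 11 took 0.398% and 0.931%. Of the 12 markers, 4 were more than 2-fold higher in SKYD, the direction of Arntl and Cry1, beside 6.91% of all tested genes, whereas Csf1r and Fcgr1 had the higher value in PDR. The 8 T cell markers took 0.0509% and 0.294%, and the 7 immature T cell markers 0.00780% and 0.159%, each led by Cd8b1, which the lists share, although Trac had the highest FPKM of the T cell list in PDR. All of these T cell genes were more than 2-fold higher in SKYD, also the direction of Arntl, Cry1, Per1, Per2 and Nr1d1. In the immature list Cd8b1 held 1383 of 1800 reads in PDR and 19828 of 40372 in SKYD. Rag1, Rag2 and Ptcra had 0 reads in PDR.

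B cell and hepatocyte markers went the other way. The 8 B cell markers took 1.07% in PDR and 0.608% in SKYD, led by Ighm. Of the 6 past the filter, 5 were more than 2-fold higher in PDR, beside 7.38% of all tested genes. The 8 hepatocyte markers took 0.226% and 0.0723%, led in FPKM by Apoa2, and 7 of 8 were more than 2-fold higher in PDR, the direction of Clock, Tef and Hlf. The 8 neutrophil markers took 0.322% and 0.227%, led in FPKM by S100a9, with 3 of 8 more than 2-fold higher in PDR. In the hepatocyte and neutrophil lists 1 marker each had the higher value in SKYD, and in the B cell list none had.

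The 6 erythroid markers took 1.71% in PDR and 2.21% in SKYD, led by Hba-a1. None was past 2-fold, beside 14.3% of all tested genes. The 5 platelet markers took 0.0197% and 0.105%, led by Pf4. Of the 3 past the filter, Pf4 alone was more than 2-fold apart, higher in SKYD, beside 6.91% of all tested genes. Ppbp, Gp9 and Itga2b had the higher value in PDR, Itga2b with 167 reads against 52, and Gp1bb was at 0 in each. Of the cells of the vessel wall, 5 fibroblast markers took 0.00660% and 0.0248%, led by Dcn, which was past 2-fold, and 5 endothelial markers took 0.00285% and 0.00184%, led by Pecam1. The 4 smooth muscle markers took 2.82e-04% and 4.09e-04%, led by Acta2, and Myh11, Tagln and Cnn1 were at 0 in each. The part of these cells in the differences of the clock genes was not tested.

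**Figure D5:**
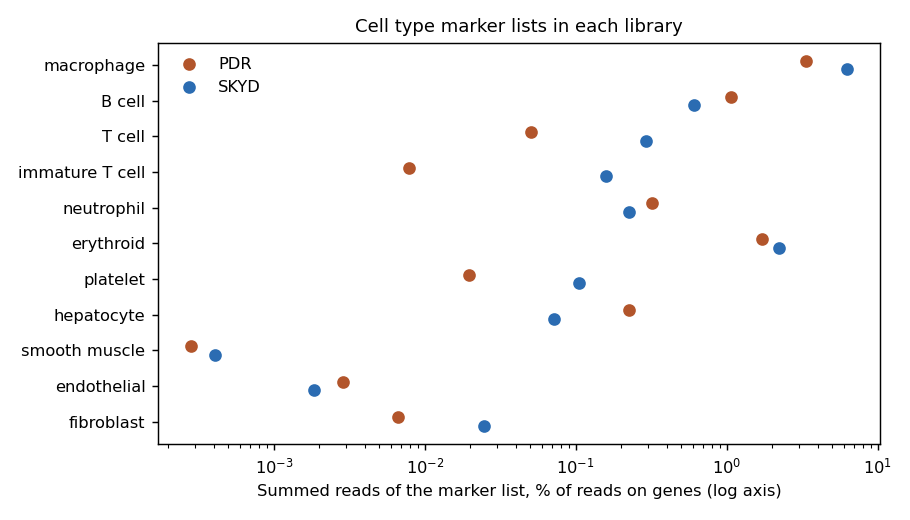
Summed reads of each marker list as % of the reads on genes (log axis) in the PDR and the SKYD library. Macrophage markers take 3.37% in PDR and 6.28% in SKYD, T cell lists are higher in SKYD, and B cell and hepatocyte lists are higher in PDR.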

How the data were processed

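RNA of sorted aortic macrophages, pooled from 5 mice in each group, was sequenced in 1 PDR and 1 SKYD library. After quality filtering, the authors used TopHat2 2.0.9 and Bowtie2 2.0.6 for alignment and HTSeq 0.6.1 for counting, and deposited FPKM for 54532 genes. The submitters' notes name mm9, but the gene positions were those of GRCm38 for 98.3% of 54409 genes shared with GENCODE M21.

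FPKM times gene length gave whole reads, within 0.000167 of a read, and the sizes that the FPKM were scaled to, 23487992 (PDR) and 24993633 (SKYD). These are not the reads on genes but 1.017 and 0.983 times them, a scaling between the libraries. The main comparison, PDR minus SKYD in log2(FPKM + 1), took genes whose FPKM averaged 1 or more and counted those past 2-fold. The ratio of FPKM over genes with at least 20 reads was added after the data were seen. With 1 library per group no test of the groups was possible. Ratios have exact 95% binomial intervals, levels exact Poisson ones, and the change of a ratio between libraries, added after the data were seen, an exact conditional one. The steps were tested on simulated data.

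The members and lists were chosen with earlier results of these data known. Named genes were the 10 members, in other lists those past 2-fold and the 4 most abundant, in marker lists the most abundant and those at 0, and genes overlapping a member. The genes of the sort markers and, after their values were seen, other genes of the immediate early, glucocorticoid-induced, clock-related, T cell, macrophage and platelet lists were named besides. Of the genes first listed, 1 is not reported here. Alternatives were pseudocounts, filters, scalings, thresholds and gene types. Intervals came from scipy 1.17.1, tables from pandas 2.3.3 with numpy 2.4.6, and plots from matplotlib 3.10.9, under Python 3.11.15.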

Additional observations from a re-analysis of the deposited data

How the results depend on the processing

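No paired analysis was possible because each group had 1 library, and no library could be left out. With other pseudocounts, filters, scalings, thresholds and gene types 0 clock genes passed the fold in either direction. Most of these settings kept a filter on the mean, which left the low clock genes untested, and a 4-fold threshold could give no other count. No clock gene changed direction in any setting in which its difference was computed. For Per3 this was, besides the main one, only the setting without a filter. For Clock, Per1 and Per2 the ratios with at least 20 reads came in addition. A mean FPKM of at least 5 left none of the 10 genes, so their median has no value there. The ratio of FPKM over genes with at least 20 reads, chosen after the data were seen, gave 2 clock genes higher in SKYD and a median of -0.86, and 2 and -0.81 with the counted reads as library size. Without a filter the median over the 9 clock genes with reads was -0.17, since low genes entered it. It was -0.15 over all 10, with Npas2 counted as 0.

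Of all genes, 464 were past the fold in PDR and 373 in SKYD at a mean FPKM of at least 5, 194 and 216 at 4-fold, 2000 and 2310 by the ratio with at least 20 reads, and 2111 and 2196 with counted reads as library size. Protein-coding genes alone gave 473 in SKYD. At 4-fold, 0 other clock loop genes and 1 gene each of the clock-controlled and glucocorticoid-induced lists stayed past it. By the ratio with at least 20 reads, with either library size, 5 other clock loop genes and 1 modifier were past 2-fold, and with counted reads 2 macrophage genes under REV-ERB or BMAL1 were. For immediate early genes the number was 1 with pseudocounts of 0.1 and 0.01, as TPM, and by the ratios. The cause of these shifts, beyond the number of genes tested, was not tested.

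Taken as reads without length, the ratio of Arntl was 7.91 to Nr1d1, 2.78 to Nr1d2 and 2.72 to Dbp in PDR, and 7.79, 4.11, 5.35 and, to Per1, 4.14 in SKYD. Length cancels between libraries, so their order between PDR and SKYD stayed. Of the values that answer a comparison, 35 moved and 108 stayed within 1.5 times the main count or within the counting interval. Counts could change inside that range, as from 767 to 1096 genes in PDR with a pseudocount of 0.01.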
